A study of Mus musculus with 8 samples.

Results

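The loss of Notum at the cap stage was examined in mouse molar tooth germs of embryonic day 14.5 (E14.5), by comparing bulk RNA sequencing of 2 Notum-/- libraries with 2 Notum+/+ libraries. The genes described were the protein_coding genes outside chromosomes X, Y and MT whose mean over these 4 libraries was above 1 FPKM (fragments per kilobase of gene, scaled to library depth), which gave 11874 of the 54532 genes listed. The Notum-/- embryos were homozygous for the knockout allele Notum em1(IMPC)Tcp on the C57BL/6N background, and the Notum+/+ embryos were wild-type littermates. Neither group was treated. Upper and lower molar germs were pooled, per the methods of the study from n = 3 for each library. The allele was present in every tissue and not restricted to the tooth, and a germ dissected from the jaw carries some of the tissue around it. With 2 libraries per genotype, each p-value sets a difference against a spread between pools that was estimated partly from the other genes tested. The same contrast at E16.5 (the bell stage), again with 2 libraries per genotype, served as a comparison.

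Notum is a secreted carboxylesterase that removes the palmitoleate lipid from Wnt ligands, which then no longer bind their Frizzled receptors. It is itself a transcriptional target of Wnt/β-catenin signaling and acts as a feedback antagonist. At the cap stage the dental epithelium folds around the condensed dental mesenchyme, and a cluster of non-dividing epithelial cells, the primary enamel knot (EK), secretes Shh, Fgf, Bmp and Wnt ligands that pattern the crown.

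All 4 libraries were of like depth, with 24000989 to 25911573 reads on listed genes, so that 1 read on a gene of 1 kb was worth 0.0385 to 0.0415 FPKM. On log2 values, libraries of the same genotype correlated at 0.992 to 0.994 and libraries of different genotype at 0.986 to 0.988. Tooth germ markers were present throughout, with the epithelial keratin Krt14 at 142 and 131 FPKM in Notum+/+ and the mesenchymal factors Msx1 and Lhx6 at 132 and 115 FPKM and at 43.7 and 42.03 FPKM. The pools differed in sex makeup. Xist, transcribed from the inactive X chromosome, was at 87.5 and 92.6 FPKM in Notum+/+ and at 27.8 and 26.96 FPKM in Notum-/-, whereas the Y-linked Ddx3y was at 6.26 and 6.96 FPKM against 17.8 and 16.9 FPKM. Male tissue made up more of both Notum-/- pools, so that for autosomal genes the share of males and the genotype cannot be told apart.

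Notum itself was at 2.65 and 1.85 FPKM in the Notum+/+ libraries and at 1.002 and 1.04 FPKM in the Notum-/- libraries. Both knockout values lay below both wild-type values, at 45.3% of the wild-type level on average. On log2(FPKM + 0.1), the scale of every log2 fold change given here (Notum-/- minus Notum+/+), the difference was -1.05 (SE 0.21), with an adjusted p of 0.237 in limma. When reads rebuilt from the FPKM were tested with voom, which weighs each value by its depth, the adjusted p was 0.0218, within a range of 0.000191 to 0.714 over the alternatives tried. The table counts the whole gene, so reads from any exon that the allele leaves in place are included. Notum lies on chromosome 11 (mm10, 120653788 to 120661175, minus strand), where the antisense genes Notumos and Myadml2os overlap it. The strand setting of the counting is not given in the sources used here. Notumos was at 0.609 and 0.393 FPKM in Notum+/+ and at 0.799 and 0.854 FPKM in Notum-/-. Myadml2os was at 0.358 and 0.347 FPKM in Notum+/+ and at 0.666 and 0.774 FPKM in Notum-/-. No gene within 250 kb of Notum passed the test. Among those above 1 FPKM, the most different neighbour was Cbr2, a carbonyl reductase gene, at 1.78 and 1.70 FPKM against 2.83 and 3.68 FPKM (0.86, SE 0.16, adjusted p = 0.204). Below 1 FPKM, Ppp1r27 and Npb differed more, by 2.76 (SE 0.51) and -1.02 (SE 0.32). They rested on at most 19 and 17 reads per library.

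Of the 11874 genes, 28 passed an adjusted p of 0.05, of which 26 were higher in Notum-/- (0.219%) and 2 were lower (0.0168%). Over all 18187 genes tested, without the limits on biotype, chromosome and level, 32 were higher (0.176%) and 6 were lower (0.033%), in total 0.209%. By list, the 26 higher genes fell in few groups, and the lists were chosen with earlier results of these data known. Their tissue of origin was not tested. Skeletal muscle lists held 19 of the 26, and the oral epithelium list held 3 (Krt13, Krt4 and Cyp2f2). The lists of mast cells, granulocytes and bone matrix held 1 each (Cma1, S100a9 and Mmp13). The remaining gene, Ablim3, encodes an actin-binding LIM protein and was in no list. The 2 lower genes were the transcription factors Hand2 and Alx1. None of the 28 was in the lists of Wnt, EK, dental epithelial or dental mesenchymal genes. The limma count rested on all 4 libraries: without any 1 of them 0 genes passed, with 523 to 732 at an unadjusted p under 0.05, and with a replicate block 2 passed. With voom 286 passed (247 higher and 39 lower), and 182 to 320 with a library left out, which held the 28 genes each time. Groups of genes are described below also by how many members had both Notum-/- values on 1 side of both Notum+/+ values, which over all 11874 genes held for 19.3% above and 22% below.

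**Figure D1:**
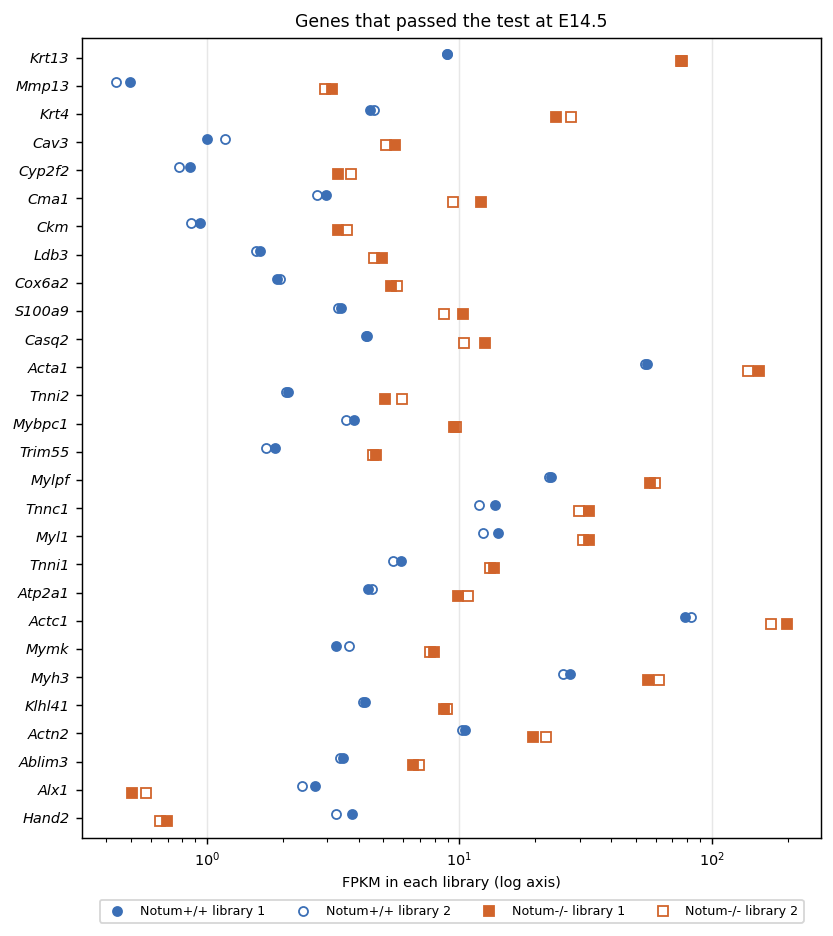
FPKM in each library (horizontal log axis) for the 28 genes that passed the test at E14.5, ordered by the ratio of genotype means, with circles for the Notum+/+ libraries and squares for the Notum-/- libraries. In each row the squares lie apart from the circles, to the right for 26 genes and to the left for Alx1 and Hand2.

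In the Wnt pathway, ligands and receptors were nearly level between genotypes, antagonists and targets differed gene by gene, and no member passed the test. Of 13 Wnt ligand genes, 2 were higher and 5 lower in both Notum-/- libraries, with a median log2 fold change of -0.04 against -0.01 over all genes. The summed ligand level was 89.2 and 90.8 FPKM in Notum+/+ and 85.5 and 89.8 FPKM in Notum-/-, so the genotypes overlapped. The most abundant ligand, Wnt5a, which acts largely outside the β-catenin branch, was at 25.3 and 24.98 FPKM against 24.1 and 24.7 FPKM. Wnt10a and Wnt10b, ligands of the dental epithelium, differed by 0.10 and -0.10 on the log2 scale (SE 0.08 and 0.08). The lowest ligand difference belonged to Wnt2, at 3.92 and 4.94 FPKM against 3.24 and 3.45 FPKM, and the highest to Wnt16, at 1.29 and 1.35 FPKM against 1.73 and 1.80 FPKM.

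For secretion, receptors and agonists, 23 genes had a median of 0.02, with 3 above and 3 below in both libraries and 17 overlapping. The Frizzled receptor Fzd2 was at 71.6 and 70.5 FPKM against 66.2 and 73.3 FPKM. Wls, which carries lipidated Wnt ligands to the cell surface, was at 31.97 and 32.6 FPKM against 33.4 and 29.9 FPKM. The co-receptors Lrp5 and Lrp6 differed by -0.12 (SE 0.08) and -0.04 (SE 0.07), and the R-spondin receptors Lgr4 and Lgr5 by -0.12 (SE 0.07) and 0.02 (SE 0.06). Fzd4 was among the few without overlap, at 8.71 and 8.71 FPKM against 10.1 and 9.98 FPKM (0.20, SE 0.06). Differences across this list ran from -0.15 to 0.37 (Rspo4).

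Antagonists spread wider, from -1.05 for Notum to 0.92 for Dkk4, with a median of 0.06 over 18 genes. Wif1, which binds Wnt ligands in the extracellular space, was at 27.9 and 26.6 FPKM against 39.99 and 38.7 FPKM. Its log2 fold change was 0.53 (SE 0.06, adjusted p = 0.0725, and 0.000101 to 0.457 over the alternatives). Apcdd1, a membrane glycoprotein that inhibits Wnt signaling, was at 28.7 and 27.2 FPKM against 35.8 and 39.3 FPKM (0.42, SE 0.07, adjusted p = 0.176). Both antagonists were higher in each Notum-/- library by more than the gap between replicates. The opposite held for Sfrp4, a secreted Frizzled-related protein, at 6.09 and 6.29 FPKM against 3.61 and 3.31 FPKM, with a difference of -0.82 (SE 0.09, adjusted p = 0.0719, and 2.83e-06 to 0.416 over the alternatives). Frzb, of the same family, was at 87.9 and 94.3 FPKM against 75.7 and 73.5 FPKM (-0.29, SE 0.07, adjusted p = 0.286). The Dkk genes, whose products act on the Lrp co-receptors, did not share a direction. Dkk1 was at 11.9 and 13.2 FPKM against 9.90 and 9.71 FPKM and Dkk3 at 23.4 and 25.5 FPKM against 30.7 and 30.8 FPKM. Dkk4, an EK gene, was at 0.726 and 1.10 FPKM against 1.43 and 2.22 FPKM (0.92, SE 0.30, adjusted p = 0.456). The most abundant members were nearly level, with Sfrp2 at 319 and 295 FPKM against 304 and 327 FPKM and Sostdc1, which also binds Bmp ligands, at 107 and 109 FPKM against 121 and 110.2 FPKM. In bulk tissue, fewer cells of a type and less RNA per cell cannot be told apart.

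Wnt/β-catenin targets were more often higher than lower in Notum-/-, by small amounts. Of 19 targets, 12 were higher in both Notum-/- libraries, 3 were lower and 4 overlapped, with a median of 0.20, or 0.13 without Notum-/- library 2. Lef1, the transcription factor that pairs with β-catenin, was at 6.03 and 5.07 FPKM against 7.41 and 7.71 FPKM (0.44, SE 0.11, adjusted p = 0.312). The feedback inhibitor gene Axin2 was at 10.5 and 9.79 FPKM against 11.5 and 13.4 FPKM (0.29, SE 0.10, adjusted p = 0.471). In each, the lower knockout value exceeded the higher wild-type value. Nkd1, whose product binds Dishevelled, was at 7.85 and 7.19 FPKM against 9.85 and 9.94 FPKM (0.39, SE 0.07, adjusted p = 0.212), and its relative Nkd2 at 6.02 and 5.40 FPKM against 7.67 and 7.11 FPKM (0.37, SE 0.09, adjusted p = 0.322). With voom, 3 targets passed as higher (Apcdd1, Lef1 and Nkd1) and 1 as lower (Notum), where 2.08% and 0.328% of all genes did. The targets Lgr5, Znrf3 and Rnf43 were level, with differences of 0.02, 0.02 and 0.00.

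The promoters of these targets (250 bases before to 50 after the start, from RefSeq, GRCm38.p6, which has the coordinates of mm10) were searched for the letters CTTTGAT, a core TCF/LEF site, on both strands. They stood in 2 of 17 promoters of the 11 target genes that the promoter table holds (11.8%), and in 1225 of all 32851 promoters (3.73%). Both promoters are shown, since they are where a target of the list carries this site, with the match in capitals, 104 and 202 bases upstream of the start. The first belongs to Sp5, a Wnt-responsive zinc finger factor (chr2:70474673-70474972, plus strand), and the second to Tnfrsf19, a TNF receptor family member of the tooth germ (chr14:61037938-61038237, minus strand).
Sp5: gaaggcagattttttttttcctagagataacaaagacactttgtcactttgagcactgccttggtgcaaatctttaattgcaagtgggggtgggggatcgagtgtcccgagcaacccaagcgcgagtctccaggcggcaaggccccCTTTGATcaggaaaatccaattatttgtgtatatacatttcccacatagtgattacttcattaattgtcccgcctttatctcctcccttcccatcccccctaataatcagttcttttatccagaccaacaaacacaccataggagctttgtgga
Tnfrsf19: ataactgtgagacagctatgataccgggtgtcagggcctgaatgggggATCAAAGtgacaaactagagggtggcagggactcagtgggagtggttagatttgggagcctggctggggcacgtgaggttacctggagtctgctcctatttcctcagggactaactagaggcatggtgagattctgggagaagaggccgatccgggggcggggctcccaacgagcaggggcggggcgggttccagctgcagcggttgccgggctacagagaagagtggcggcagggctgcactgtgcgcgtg
In expression, Sp5 was at 3.46 and 3.14 FPKM against 3.46 and 4.03 FPKM (0.18, SE 0.12), and Tnfrsf19 at 30.8 and 31.6 FPKM against 38.8 and 36.2 FPKM (0.26, SE 0.06), so that neither passed the test.

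Genes of the primary EK were mostly higher in Notum-/-. Of 16 members, 11 were higher in both Notum-/- libraries and 3 were lower, with a median of 0.34, and none passed in limma. The lists of dental and of oral epithelium also had medians above 0, at 0.12 and 0.43. How far the amount of epithelium in each pool enters the EK values was not tested. Shh, whose product drives epithelial growth from the EK, was at 9.49 and 11.1 FPKM against 12.4 and 12.02 FPKM (0.25, SE 0.09, adjusted p = 0.508). Fgf4, the standard EK marker, was at 1.69 and 1.27 FPKM against 1.89 and 2.63 FPKM (0.57, SE 0.23), and Fgf20, which acts upstream of it, at 1.19 and 1.22 FPKM against 1.66 and 1.81 FPKM (0.49, SE 0.14). In these ligand genes the knockout pair lay above the wild-type pair without overlap. Bmp ligands did not follow: Bmp4 was at 21.5 and 19.2 FPKM against 21.4 and 22.4 FPKM, Bmp7 at 12.3 and 12.2 FPKM against 11.4 and 13.4 FPKM, and Bmp2 at 8.40 and 8.08 FPKM against 7.52 and 7.51 FPKM. Msx2, a homeobox gene responsive to Bmp, was at 4.04 and 3.97 FPKM against 5.63 and 5.59 FPKM (0.48, SE 0.07, adjusted p = 0.160), with replicates close together in each genotype.

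A pair of members was singled out after their values were seen. Cdkn1a, the cell cycle inhibitor p21 that marks the non-dividing EK, was at 7.37 and 8.46 FPKM in Notum+/+ and at 12.6 and 12.02 FPKM in Notum-/- (0.63, SE 0.09, adjusted p = 0.129, and 1.54e-05 to 0.612 over the alternatives). Fgf3, which is expressed in both EK and papilla, was at 5.37 and 5.19 FPKM against 6.66 and 6.70 FPKM (0.33, SE 0.07). Summed over the EK list, expression was 97.7 and 97.4 FPKM in Notum+/+ and 109 and 114 FPKM in Notum-/-.

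**Figure D2:**
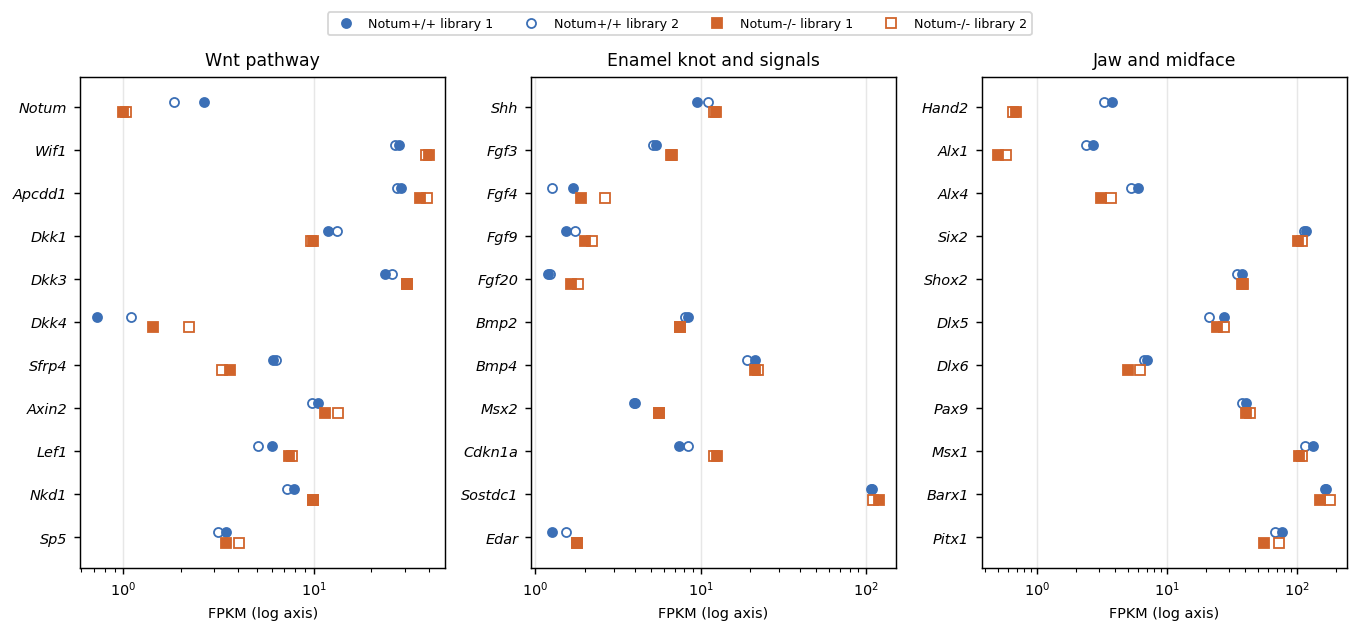
FPKM in each library (horizontal log axes) for genes of the Wnt pathway, of the EK and its signals, and of jaw and midface patterning, with circles for Notum+/+ and squares for Notum-/-. Hand2 and Alx1 show the widest gaps, while most EK and Wnt target genes have squares slightly to the right of circles.

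Pathways that answer EK signals differed by small amounts, and Shh response genes were more often lower than higher. Of 12 Shh response genes, 7 were lower and 2 higher in both Notum-/- libraries, beside 22% and 19.3% of all genes. Their median was -0.12. The median was -0.06 without Notum-/- library 1, -0.08 without Notum+/+ library 1 and -0.18 without Notum-/- library 2. The direct target Gli1 was at 47.6 and 43.4 FPKM against 38.8 and 41.6 FPKM (-0.18, SE 0.07), the receptor and target Ptch1 at 34.5 and 35.7 FPKM against 30.1 and 30.3 FPKM (-0.21, SE 0.05), and Hhip, a hedgehog antagonist, at 5.28 and 5.11 FPKM against 3.97 and 4.48 FPKM (-0.29, SE 0.09). These readouts lay below Notum+/+ while the ligand Shh lay above it, and none passed. Fgf response genes had a median of 0.03 over 13: the phosphatase gene Dusp6 overlapped (54.8 and 56.6 FPKM against 52.7 and 57.5 FPKM), and Spry2, a feedback inhibitor of Fgf receptors, was at 12.8 and 12.5 FPKM against 14.7 and 15.99 FPKM. Bmp response genes had a median of 0.01 over 16. Id1 was at 24.9 and 26.8 FPKM against 31.2 and 32.6 FPKM, whereas the inhibitory Smad6 was at 16.6 and 16.97 FPKM against 12.4 and 14.5 FPKM. Of 7 genes of the Ectodysplasin pathway, which acts on the EK, 3 were higher and 0 were lower in both libraries.

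The dental epithelium list (23 genes, median 0.12) held 11 genes that were higher and 4 that were lower in both libraries, and the median was 0.05 without Notum-/- library 2. Keratins of basal epithelium gave the larger values. Krt5 was at 224 and 215 FPKM against 291 and 295 FPKM (0.42, SE 0.07, adjusted p = 0.176), Krt14 at 142 and 131 FPKM against 172 and 177 FPKM (0.36, SE 0.07, adjusted p = 0.241), and Krt15 at 106 and 96.2 FPKM against 138 and 144 FPKM (0.48, SE 0.08, adjusted p = 0.160). These keratins, which the oral epithelium also makes, passed with voom and not in limma. Krt17 was at 259 and 255 FPKM against 260.0 and 265 FPKM. The dental mesenchyme list (28 genes) had a median of -0.02. Barx1, a homeobox gene of the molar mesenchyme, was at 168 and 165 FPKM against 151 and 181 FPKM, and Msx1, required for passage beyond the bud stage, at 132 and 115 FPKM against 103 and 109.8 FPKM (-0.21, SE 0.09). The mesenchymal factor Prrx1 was at 82.8 and 87.7 FPKM against 72.8 and 70.4 FPKM (-0.25, SE 0.06). Of dentin and enamel products, 3 genes were above 1 FPKM (Ambn, Dmp1 and Odam), and all 3 overlapped.

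Hand2 and Alx1, which pattern the facial skeleton, fell and were the only members to pass as lower. Hand2 specifies the distal mandible downstream of endothelin. It was at 3.76 and 3.27 FPKM in Notum+/+ and at 0.696 and 0.655 FPKM in Notum-/-, 19.2% of the wild-type level. Hand2 fell by 2.22 on the log2 scale (SE 0.14, adjusted p = 0.0374). In limma with all 8 libraries sharing a spread, its adjusted p was 0.0720, while 27 of the 28 genes passed. Alx1, a frontonasal homeobox gene, was at 2.70 and 2.40 FPKM against 0.504 and 0.575 FPKM, 21.2% of the wild-type level, and fell by 2.05 (SE 0.17, adjusted p = 0.0450). Its relative Alx4 was at 5.95 and 5.29 FPKM against 3.14 and 3.69 FPKM (-0.70, SE 0.12, adjusted p = 0.176). In these 3 genes the genotypes did not overlap. They are known from the front and midline of the developing face. How much tissue of that region was dissected with each germ was not tested.

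Most other members of both patterning lists differed by less. The other 12 mandibular members ranged from -0.37 (Nkx2-3) to 0.51 (Dlx4), and the list median was -0.01. Dlx5 and Dlx6, homeobox genes of the lower jaw upstream of Hand2, were at 27.3 and 20.96 FPKM against 24.1 and 27.4 FPKM, and at 7.04 and 6.66 FPKM against 5.04 and 6.26 FPKM. Ednra, the endothelin receptor, differed by -0.08 (SE 0.06), and Pitx1, a factor of the proximal mandible, by -0.18 (SE 0.14). Of 17 midfacial members, 8 were lower and 1 higher in both libraries, with a median of -0.10, or -0.0061 without Notum-/- library 1. The abundant Six2 and Shox2, homeobox genes of facial mesenchyme, were at 117 and 113 FPKM against 101 and 109 FPKM, and at 37.96 and 34.7 FPKM against 37.7 and 38.8 FPKM. Pax3, a neural crest and muscle precursor factor that averaged under 1 FPKM and so is no member, was at 0.905 and 0.819 FPKM against 0.218 and 0.249 FPKM.

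Skeletal muscle genes made up most of what rose. Of 33 members of the contractile list, 13 rose and 32 were higher in both Notum-/- libraries, with a median of 1.17. Summed over the list, expression was 329.9 and 314 FPKM in Notum+/+ and 760.0 and 739 FPKM in Notum-/-, or 2.33 times. Acta1, the actin of skeletal fibers, was at 55.4 and 54.4 FPKM against 154 and 139.9 FPKM (1.42, SE 0.07, adjusted p = 0.0272). Actc1, the cardiac actin that fetal skeletal muscle also makes, was at 78.3 and 82.6 FPKM against 199 and 172 FPKM (1.20, SE 0.09, adjusted p = 0.0448). Both Notum-/- libraries were high and close to each other in the 2 actin genes. Myh3, the embryonic myosin heavy chain, was at 27.5 and 25.8 FPKM against 56.1 and 61.8 FPKM, and the fast light chain gene Mylpf at 23.2 and 22.6 FPKM against 57.1 and 59.7 FPKM (1.35, SE 0.06, adjusted p = 0.0194). The other contractile genes that rose were Myl1, Tnnc1, Actn2, Tnni1, Tnni2, Klhl41, Mybpc1, Trim55 and Ldb3, which encode myosin and troponin subunits and other sarcomere proteins, by 2.01 to 2.99 times. Actn3, the α-actinin of fast fibers, was the sole member to overlap, at 2.84 and 2.63 FPKM against 2.95 and 2.55 FPKM.

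Genes of excitation and energy supply followed. Of 23 members, 5 rose and 22 were higher in both libraries, and the median was 1.23. Cav3, the muscle caveolin, was at 1.004 and 1.18 FPKM against 5.55 and 5.12 FPKM (2.19, SE 0.13, adjusted p = 0.0346), and Ckm, the muscle creatine kinase, at 0.940 and 0.870 FPKM against 3.33 and 3.58 FPKM (1.82, SE 0.13, adjusted p = 0.0390). Casq2 and Atp2a1, which store and pump calcium in the sarcoplasmic reticulum, and the cytochrome oxidase subunit gene Cox6a2 rose by 2.34 to 2.86 times. Jph1, which ties the sarcoplasmic reticulum to the cell surface, was the exception, at 3.14 and 2.87 FPKM against 2.74 and 2.49 FPKM.

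Regulators of the lineage differed by less. Mymk, the fusogen of myoblasts, rose from 3.24 and 3.65 FPKM to 7.93 and 7.64 FPKM (1.16, SE 0.09, adjusted p = 0.0448). Myog, which drives terminal differentiation, was at 11.96 and 10.6 FPKM against 21.3 and 23.3 FPKM (0.98, SE 0.09, adjusted p = 0.0562). Myod1, named after its values were seen, was at 6.91 and 6.83 FPKM against 12.3 and 13.9 FPKM (0.92, SE 0.08, adjusted p = 0.0562). Over 13 members the median was 0.65, with 9 higher and 2 lower in both libraries. Members that facial mesenchyme also expresses were closer to level: Eya1 differed by -0.23 (SE 0.07) and Tbx1 by 0.19 (SE 0.16). Skeletal muscle is no part of the tooth germ, and how much of it was dissected with each germ was not tested.

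The promoters of 5 muscle genes that rose are shown because these genes moved together and share the letters CAGCTG, an E-box of the form that myogenic factors bind, which reads the same on both strands. It stood in 12 of 29 promoters of the 24 contractile members found in the table (41.4%) and in 10 of 15 promoters of the 15 excitation members found (66.7%), beside 5355 of all 32851 promoters (16.3%). The sequences are from RefSeq (GRCm38.p6), written along the strand of the gene from its upstream end, with CAGCTG in capitals. Acta1 is at chr8:123894726-123895025, minus strand, Mylpf at chr7:127211358-127211657, plus strand, Ckm at chr7:19410844-19411143, plus strand, Cav3 at chr6:112459255-112459554, plus strand, and Atp2a1 at chr7:126463024-126463323, minus strand. The match began 221, 51, 249, 106 and 55 bases upstream of the start, in that order.
Acta1: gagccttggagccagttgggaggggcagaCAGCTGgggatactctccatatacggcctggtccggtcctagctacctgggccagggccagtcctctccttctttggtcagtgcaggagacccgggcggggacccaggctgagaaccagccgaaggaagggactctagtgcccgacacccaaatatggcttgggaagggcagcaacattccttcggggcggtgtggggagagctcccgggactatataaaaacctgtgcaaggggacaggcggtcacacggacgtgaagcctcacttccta
Mylpf: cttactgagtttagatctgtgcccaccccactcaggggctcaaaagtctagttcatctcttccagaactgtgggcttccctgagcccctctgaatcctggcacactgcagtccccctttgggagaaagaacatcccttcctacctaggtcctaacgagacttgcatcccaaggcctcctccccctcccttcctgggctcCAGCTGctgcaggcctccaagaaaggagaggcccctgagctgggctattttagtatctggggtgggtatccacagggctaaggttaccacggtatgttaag
Ckm: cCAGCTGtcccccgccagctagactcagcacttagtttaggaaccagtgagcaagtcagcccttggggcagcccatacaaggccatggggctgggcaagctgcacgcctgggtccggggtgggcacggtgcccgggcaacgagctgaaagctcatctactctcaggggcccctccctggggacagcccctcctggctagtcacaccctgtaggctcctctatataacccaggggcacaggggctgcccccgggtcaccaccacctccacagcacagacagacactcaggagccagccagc
Cav3: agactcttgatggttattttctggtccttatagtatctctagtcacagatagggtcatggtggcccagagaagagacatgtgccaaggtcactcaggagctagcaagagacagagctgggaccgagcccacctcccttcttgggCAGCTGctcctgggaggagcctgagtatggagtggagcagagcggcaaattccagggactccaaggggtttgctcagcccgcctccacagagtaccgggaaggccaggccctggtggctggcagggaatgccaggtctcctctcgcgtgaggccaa
Atp2a1: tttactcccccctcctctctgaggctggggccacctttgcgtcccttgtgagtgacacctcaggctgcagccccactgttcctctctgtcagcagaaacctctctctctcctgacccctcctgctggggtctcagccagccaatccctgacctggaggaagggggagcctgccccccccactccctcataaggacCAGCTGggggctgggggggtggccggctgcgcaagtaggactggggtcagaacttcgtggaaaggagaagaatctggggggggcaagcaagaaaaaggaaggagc
The 5 genes rose by 2.34 to 4.88 times. The match is a description of these windows.

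Oral and keratinising epithelium held the gene with the largest fold change of the 28, Krt13. Of 28 members, 3 rose, and 24 were higher and 1 lower in both Notum-/- libraries, with a median of 0.43. Krt13, a keratin of the suprabasal layers of oral mucosa, rose from 8.96 and 8.95 FPKM to 76.3 and 75.7 FPKM, an 8.49-fold difference (3.07, SE 0.05, adjusted p = 0.00108). Its partner Krt4 rose from 4.44 and 4.60 FPKM to 24.3 and 27.9 FPKM (2.50, SE 0.09, adjusted p = 0.0115). In both genes the libraries of a genotype nearly coincided beside the gap. Cyp2f2, a cytochrome P450 gene, rose from 0.861 and 0.775 FPKM to 3.31 and 3.73 FPKM (1.98, SE 0.14, adjusted p = 0.0390). Ly6d, a surface protein of stratified epithelium, was at 3.40 and 2.05 FPKM against 13.6 and 11.3 FPKM (2.19, SE 0.25, adjusted p = 0.0805).

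Other layers of the same epithelium differed by less. The desmosomal genes Dsc3 and Pkp1 were at 28.5 and 29.1 FPKM against 30.1 and 31.9 FPKM, and at 26.5 and 24.9 FPKM against 33.6 and 36.3 FPKM. Krt6a, an inducible keratin, was at 15.2 and 14.2 FPKM against 28.2 and 22.5 FPKM (0.77, SE 0.12, adjusted p = 0.160). Krt1 and Lor, of the spinous and cornified layers, were named after their values were seen. Krt1 was at 3.45 and 3.91 FPKM against 6.88 and 7.62 FPKM (0.96, SE 0.10, adjusted p = 0.0719), and Lor, the loricrin gene, at 1.28 and 1.33 FPKM against 0.988 and 1.28 FPKM (-0.20, SE 0.19). Summed over the list, expression was 204 and 197 FPKM in Notum+/+ and 357 and 364 FPKM in Notum-/-. How much oral epithelium was dissected with each germ was not tested.

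**Figure D3:**
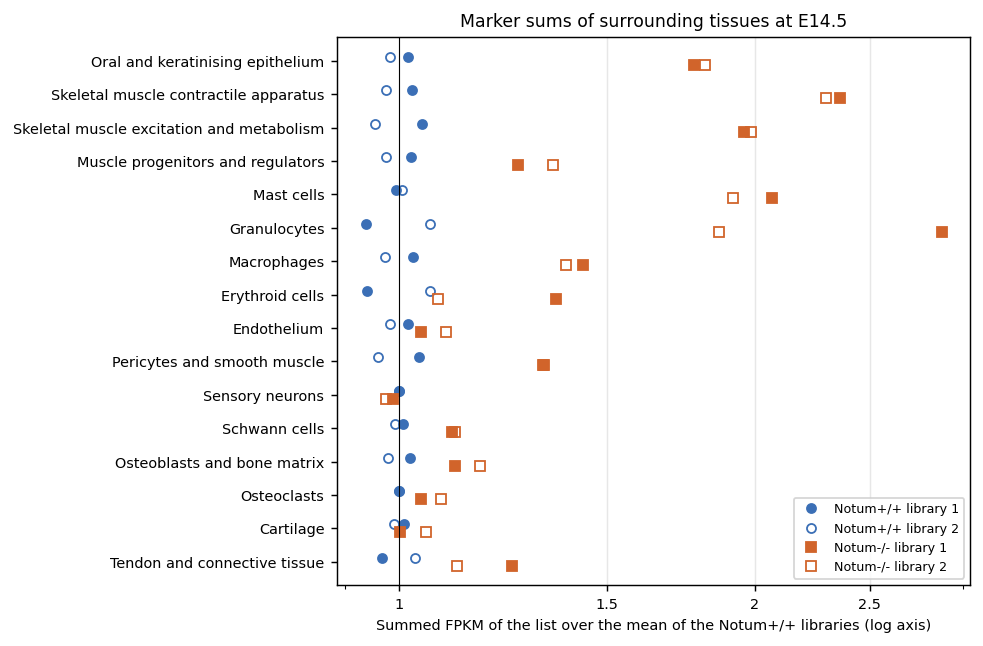
Summed FPKM of each list of surrounding-tissue markers in each library, divided by the mean of the 2 Notum+/+ libraries (horizontal log axis), with circles for Notum+/+ and squares for Notum-/-. The Notum-/- sum of the contractile muscle list was 2.33 times that of Notum+/+, of granulocytes 2.37, of mast cells 1.99, of oral epithelium 1.80 and of sensory neurons 0.982.

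Genes of mast cells, granulocytes and macrophages lay higher, with few past the test. Cma1, the chymase of connective tissue mast cells, rose from 2.97 and 2.73 FPKM to 12.3 and 9.50 FPKM (1.89, SE 0.14, adjusted p = 0.0437). Cpa3, the mast cell carboxypeptidase, was at 4.71 and 4.93 FPKM against 12.9 and 10.5 FPKM (1.25, SE 0.12, adjusted p = 0.0623), and the tryptase gene Tpsb2 at 0.422 and 0.521 FPKM against 2.57 and 3.92 FPKM (2.52, SE 0.25, adjusted p = 0.0693). The granule protease genes stood apart, while Kit, a receptor shared with other cells, was at 5.23 and 5.49 FPKM against 5.58 and 5.76 FPKM. The mast cell list summed to 20.4 and 20.6 FPKM in Notum+/+ and to 42.4 and 39.3 FPKM in Notum-/-.

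Granulocyte genes had a median of 1.31 over 6 members (0.90 to 1.64 with a library left out), with 4 higher in both Notum-/- libraries. The list summed to 11.7 and 13.3 FPKM in Notum+/+ and to 36.03 and 23.4 FPKM in Notum-/-. Among its members, S100a9 rose from 3.42 and 3.31 FPKM to 10.3 and 8.70 FPKM (1.47, SE 0.11, adjusted p = 0.0425). Its dimer partner S100a8 was at 3.17 and 4.23 FPKM against 12.1 and 3.99 FPKM, so that 1 Notum-/- library was high and the other was within the Notum+/+ range. For macrophages, 16 of 17 members were higher in both Notum-/- libraries and 0 lower, with a median of 0.46, though none passed in limma. Lyz2, the lysozyme of myeloid cells, was at 17.3 and 15.9 FPKM against 28.98 and 26.6 FPKM (0.74, SE 0.08, adjusted p = 0.0719), and the complement gene C1qb at 11.4 and 11.1 FPKM against 14.7 and 14.3 FPKM (0.36, SE 0.06). The macrophage list summed to 109.7 and 104 FPKM in Notum+/+ and to 153 and 148 FPKM in Notum-/-. In the erythroid list, the adult gene Hbb-bs was at 268 and 320.2 FPKM against 511 and 401 FPKM and the embryonic gene Hbb-y at 185 and 201 FPKM against 153 and 118 FPKM, in opposite directions. The adult globin genes are near-identical copies between which reads may be split, so the separate value of Hbb-bs is uncertain.

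Vessels, nerve and skeleton were closer to level. Of 20 endothelial genes, 8 were higher and 1 lower in both libraries (median 0.11), and the vascular cadherin gene Cdh5 was at 33.9 and 29.4 FPKM against 34.6 and 37.6 FPKM. Acta2, the smooth muscle actin that early skeletal muscle also makes, was at 39.1 and 36.3 FPKM against 65.9 and 59.6 FPKM (0.73, SE 0.08, adjusted p = 0.0719), while Pdgfrb, a receptor of pericytes and mesenchyme, was at 38.6 and 35.8 FPKM against 37.2 and 41.2 FPKM. Sensory neuron genes had a median of 0.01 over 18. Gap43, the growth cone protein, was at 24.6 and 25.01 FPKM against 26.8 and 27.1 FPKM, and the peripheral filament gene Prph at 8.08 and 8.57 FPKM against 8.20 and 9.20 FPKM. The neurofilament gene Nefm went the other way, at 3.45 and 3.19 FPKM against 1.92 and 1.90 FPKM (-0.77, SE 0.10, adjusted p = 0.119). Schwann cell genes had a median of 0.20, with 10 of 12 higher in both libraries.

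In the bone list, Mmp13, the collagenase of osteoblasts and hypertrophic cartilage, rose from 0.497 and 0.436 FPKM to 3.15 and 2.95 FPKM (2.48, SE 0.16, adjusted p = 0.0374). This was 6.54-fold on 29 to 206 reads per library. Other genes of the list split. Col1a1 was at 1052 and 974 FPKM against 1191 and 1355 FPKM, the matrix gene Sparc at 276 and 267 FPKM against 362 and 333 FPKM, and Ibsp, the bone sialoprotein gene, at 265 and 248 FPKM against 203 and 199 FPKM (-0.35, SE 0.07, adjusted p = 0.260). Sp7, the osteoblast transcription factor, was named after its values were seen and was at 50.3 and 47.7 FPKM against 38.9 and 37.2 FPKM (-0.37, SE 0.06, adjusted p = 0.173). The bone list held 6 members above and 8 below in both libraries. Cartilage genes had a median of 0.02, and Col2a1 was at 30.9 and 29.4 FPKM against 30.4 and 32.01 FPKM. Ihh, the growth plate hedgehog, was at 1.32 and 1.39 FPKM against 0.711 and 0.707 FPKM (-0.84, SE 0.17, adjusted p = 0.241). Tendon and connective tissue had a median of 0.24, with 10 of 13 higher in both libraries, among them the matricellular gene Postn at 204 and 206 FPKM against 247 and 233 FPKM.

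Programs of cell state differed little in size. Of 26 proliferation genes, 17 were lower and 1 higher in both Notum-/- libraries, with a median of -0.11 and a range of -0.25 to 0.07, and none passed. Pcna, the replication clamp, was at 76.7 and 83.4 FPKM against 79.8 and 75.6 FPKM, and Top2a, the replication topoisomerase, at 63.7 and 64.4 FPKM against 61.5 and 58.9 FPKM. Immediate early and heat shock genes, which respond to handling, had a median of 0.22, with 11 of 18 higher in both libraries. The chaperone gene Hspb1 was at 26.3 and 31.8 FPKM against 48.1 and 43.1 FPKM (0.65, SE 0.11, adjusted p = 0.186). Hypoxia and glycolysis genes had a median of 0.10, and interferon response genes 0.11, or 0.05 without Notum+/+ library 1. Retinoic acid genes split 4 against 4: Crabp1, which binds retinoic acid in the cytoplasm, was at 36.1 and 32.7 FPKM against 24.8 and 28.8 FPKM (-0.36, SE 0.10), and Aldh1a2, which makes it, at 53.3 and 53.7 FPKM against 50.1 and 46.99 FPKM. Of 35 collagen genes, 18 were higher and 3 lower in both libraries, with a median of 0.11. The 78 cytosolic ribosomal protein genes had a median of 0.05 and the 17 replication-dependent histone genes one of -0.13 (-0.26 without Notum+/+ library 2 and -0.07 without Notum-/- library 1), and no member of these families passed the test.

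Among the 15 largest and 15 smallest values without overlap, several were not described above, and their tissue of origin was not tested. BC100530, a gene of the stefin protease inhibitor family, where near-identical copies can share reads, was at 1.26 and 1.43 FPKM against 6.62 and 4.43 FPKM. The predicted gene Gm17622 was at 1.84 and 1.79 FPKM against 5.45 and 9.41 FPKM, which rested on only 2 to 11 reads per library (adjusted p with voom = 0.447). Cyp2t4, a cytochrome P450 gene, was at 0.855 and 0.707 FPKM against 2.92 and 3.59 FPKM (1.93, SE 0.18, adjusted p = 0.0562). Snrpf, a spliceosome core protein gene, was at 13.1 and 20.3 FPKM against 7.41 and 8.23 FPKM (-1.05, SE 0.22, adjusted p = 0.260), and Clic6, an intracellular chloride channel gene, at 2.97 and 2.82 FPKM against 1.43 and 1.55 FPKM (-0.91, SE 0.12, adjusted p = 0.102). None of these 5 passed in limma.

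The cap-stage differences were set against those at E16.5 by testing whether the genotype difference was another at that age (the interaction in a limma fit over 8 libraries, where 24.9% of all genes passed). Sex makeup differed there too, with Ddx3y at 0 and 0 FPKM in Notum+/+ and 11.2 and 11.95 FPKM in Notum-/-. Of the 28 genes that passed at E14.5, 26 also passed the interaction test. These 28 were chosen by their difference in the same E14.5 libraries that enter this fit. That choice by itself favors passing here and a smaller difference at E16.5, so their share cannot be set against that of all genes. For oral epithelium the direction turned: 18 of 28 members passed, each with a lower difference at E16.5, and the list median went from 0.43 to -0.35. Krt13 was at 1009 and 1075 FPKM in Notum+/+ and 580.3 and 554 FPKM in Notum-/- at E16.5, and Krt4 at 306 and 316 FPKM against 177 and 172 FPKM. Both keratins were thus more abundant at the later age, with the higher level in the opposite genotype. Dental epithelium genes had medians of 0.12 and -0.36, with 14 of 23 past the interaction test. Muscle lists had smaller medians at E16.5, and their members were mixed. The contractile list had medians of 1.17 and 0.45, with 25 of 33 members past the interaction test, 24 of them with a lower difference at E16.5, and its sums were 1056 and 1139 FPKM in Notum+/+ and 1518 and 1500.3 FPKM in Notum-/-. At E16.5 alone, 19 contractile members passed as higher and 2 as lower (Myl4 and Tnni2). Over all genes described that were tested at that age, 17.9% passed as higher and 20.6% as lower. Of the muscle genes that rose at E14.5, Tnni2 was at 25.9 and 29.8 FPKM against 22.8 and 22.1 FPKM (-0.31, adjusted p = 0.0417), and Mylpf, Mymk and Cav3 had log2 fold changes of -0.16, -0.11 and -0.02, which did not pass. Mast cell genes had medians of 0.72 and 0.49, with 2 of 7 past that test. Nerve genes were lower at E16.5: Schwann cell genes had medians of 0.20 and -0.88 with 10 of 12 past the interaction test, and sensory neuron genes 0.01 and -1.22 with 10 of 18. Of the EK list, 6 of 16 members passed, with medians of 0.34 and -0.08, and of the genes that passed, Fgf20 alone had a higher difference at E16.5 (1.91 against 0.49). Hand2 and Alx1 averaged under 0.3 FPKM at E16.5 and were not tested at that age alone.

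**Figure D4:**
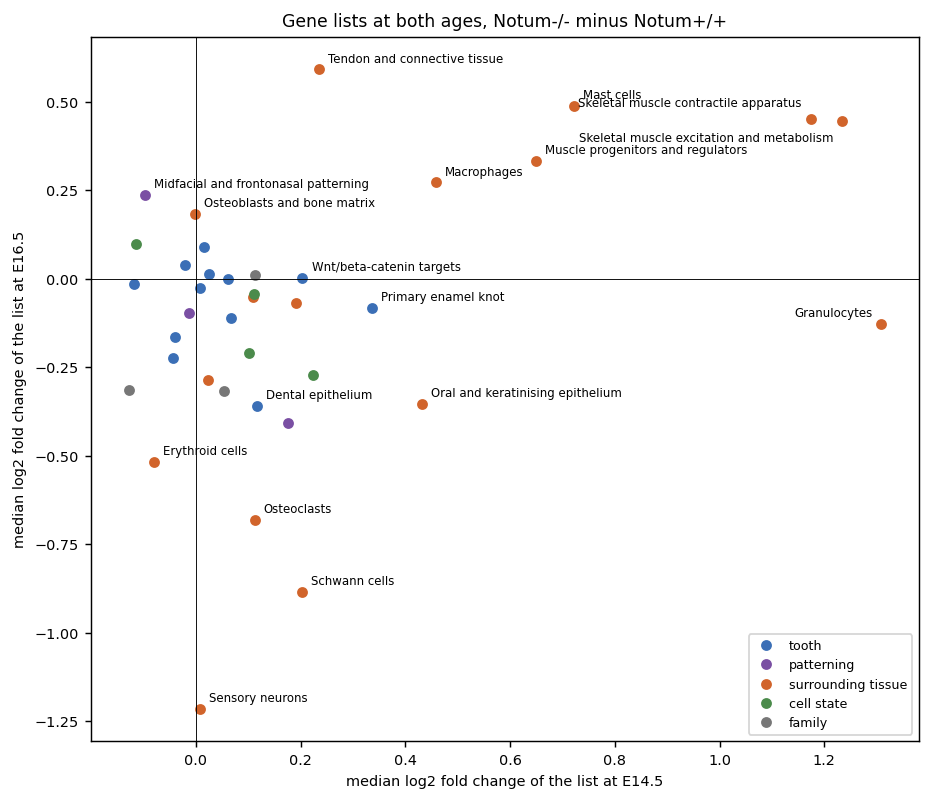
Median log2 fold change (Notum-/- minus Notum+/+) of each gene list, with E14.5 on the horizontal and E16.5 on the vertical axis, colored by the kind of list, with selected lists named. Muscle, mast cell and macrophage lists lie above 0 on both axes, oral epithelium has 0.43 and -0.35, and sensory neurons have 0.01 and -1.22.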

How the data were processed

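Per the submitters' processing notes, the tools were HISAT2 2.0.5 and featureCounts 1.5.0-p3 and the build was mm10. The deposited table holds FPKM per gene, which the authors computed from gene length and mapped reads of poly-A RNA. FPKM is normalized to library depth, so a tissue that takes up more RNA in a library lowers the values of others. Whole reads could be rebuilt from all 4 columns (within 0.05 of a whole number). Genes with a mean above 0.3 FPKM at E14.5 (18187) were fitted with limma 3.58.1 in R 4.3.3 on log2(FPKM + 0.1) with a trend of variance on expression, 2 Notum-/- against 2 Notum+/+ libraries without a block, and p-values were Benjamini-Hochberg adjusted over all 18187. A fold change on this scale understates the change of low genes. The script was checked on simulated data. The genes described and the 35 gene lists were chosen with earlier results of these data known, so lists are given by counts and medians, with no test. Lists share some genes, and 1 listed symbol was not matched. Genes named were Notum, those past the test (at most 20 in each direction), the 15 largest and 15 smallest values without overlap, genes within 250 kb of Notum, EK markers, the Wnt, hedgehog, Fgf, Bmp and jaw patterning lists, and of each other list the members past the test and the 4 most abundant. Others were named after their values were seen. Alternatives were another pseudocount, filter, scaling and model, voom on rebuilt reads, a replicate block and each library left out. Libraries with the same replicate number did not deviate together. The separate values of some list members are not reported here.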

Additional observations from a re-analysis of the deposited data

Results flagged for a closer look

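Of the 28 genes that passed at E14.5, 26 had a genotype difference that was another at E16.5 by the interaction test, where 24.9% of all genes passed. The 2 shares are not alike, because the 28 were chosen on the same E14.5 libraries that enter the interaction test. Such a choice by itself favors passing and a smaller difference at E16.5. The values below are the log2 fold change (Notum-/- minus Notum+/+) at E16.5 minus that at E14.5, so a negative value means a smaller or opposite difference at the later age. In the oral epithelium list it was -3.95 for Krt13, -3.33 for Krt4 and -1.87 for Cyp2f2. For Mmp13 of the bone list it was -2.61, and for S100a9 of the granulocyte list -1.58. In muscle calcium handling, membrane and metabolism it was -2.21 for Cav3, -1.38 for Cox6a2, -1.09 for Ckm, -0.93 for Casq2 and -0.41 for Atp2a1. For the myoblast fusogen Mymk it was -1.26, and for the actin-binding Ablim3 it was -0.72. Contractile genes had -1.66 (Tnni2), -1.51 (Mylpf), -1.10 (Tnnc1), -1.03 (Myh3), -0.92 (Tnni1), -0.77 (Trim55), -0.70 (Myl1), -0.70 (Ldb3), -0.56 (Acta1), -0.51 (Mybpc1), -0.44 (Actc1), -0.41 (Klhl41) and -0.32 (Actn2). Alx1 had 2.79, from a gene that was nearly silent at E16.5 in both genotypes. Sex makeup differed between genotypes at both ages, and its part in these values was not tested.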

How the results depend on the processing

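All 28 genes that passed kept their direction in every alternative. How many members passed depended on how the spread was estimated from 2 libraries per genotype, and 1046 had an unadjusted p under 0.05. Against 28, the count was 51 with a filter of 1 FPKM, 1 with no filter, 1 with no trend, 219 with all 8 libraries sharing a spread, and 286 with voom. It was 2 with a replicate block and 1 with the numbers crossed (a block chosen after seeing the data, since equal numbers correlated at -0.186), with 628 and 1522 at an unadjusted p under 0.05. With each library left out, limma passed 0, with 523 to 732 at an unadjusted p under 0.05, and 1 residual degree of freedom; the lone sample is assumed to vary like the other group. Voom with a library left out, added after seeing the data, passed 182 to 320 (274 and 182 without a Notum+/+ library, 302 and 320 without a Notum-/- library), the 28 genes among them each time. With a pseudocount of 1, list medians were 0.23 for EK, 0.35 for oral epithelium, 0.97 for contractile and 0.78 for excitation muscle, and 0.38 for macrophages; as TPM they were 0.30 for EK and 0.42 for macrophages. Leaving out 1 library gave medians of 0.13 to 0.27 for Wnt targets, 0.24 to 0.34 for EK, -0.12 to -0.0061 for midfacial genes, 0.36 to 0.47 for oral epithelium, 1.13 to 1.24 for contractile and 1.10 to 1.24 for excitation muscle, and 0.35 to 0.45 for macrophages. With voom and a library left out they were 0.13 to 0.28 for Wnt targets, 0.25 to 0.35 for EK (0.31 without Notum-/- library 2), -0.12 to -0.0069 for midfacial genes, 0.38 to 0.49 for oral epithelium, 1.16 to 1.30 for contractile and 1.16 to 1.33 for excitation muscle, and 0.36 to 0.45 for macrophages (0.37 without Notum+/+ library 2). Leaving out 1 library also moved the median of Shh response genes between -0.18 and -0.06, of dental epithelium between 0.05 and 0.14, and of granulocytes between 0.90 and 1.64; medians near 0 in other lists changed sign in some of these fits. Depth limits low genes: at 1 FPKM a gene of 1 kb rests on few reads.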
